A study of Mus musculus with 6 samples.

Results

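The mouse antigen presentation region on chromosome 17 was examined by ATAC-seq, which counts where the Tn5 transposase cuts open chromatin, at 66 of the 43020 peaks in the table. A peak was taken as a member when its mm9 coordinates overlapped either of a pair of windows. The first window, chr17:33850000-34500000, was chosen for H2-K1, Tapbp, Tap1, Tap2, Psmb8, Psmb9 and the class II genes, and it held 41 peaks. The second window, chr17:35350000-36600000, was chosen for H2-D1 and the H2-Q and H2-T genes, and it held 25 peaks. The primary group was 3 organoid lines of genotype AKP, grown from primary tumours that formed in immunocompetent C57Bl6 mice after naive organoids were placed in the colon by colonoscopy. Those lines had been passaged until cancer cells alone remained. The naive group was 3 libraries of AKP organoids that had not been transplanted. All 6 libraries are colon cancer organoids and share the AKP genotype. The age of the mice is not given in the labels, and nothing there says whether the naive libraries came from separate cultures or how the tumours were spread over mice, so p-values measure the spread between these libraries. Transplantation, time in the mouse, the step from tumour to culture and later passage are shared by the 3 lines, and their parts cannot be told apart.

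Class I molecules show peptides from inside a cell to cytotoxic T cells. The immunoproteasome subunits encoded by Psmb8 and Psmb9 help cut proteins into peptides, the Tap1 and Tap2 proteins form the transporter that carries the peptides into the endoplasmic reticulum, and tapasin, the product of Tapbp, helps load them onto heavy chains such as those of H2-K1 and H2-D1. H2-T23 encodes the non-classical class I molecule Qa-1, which inhibitory receptors of natural killer and T cells bind. H2-Aa encodes a chain of a class II molecule, which presents peptides to helper T cells and is made mainly by professional antigen-presenting cells. Interferon gamma raises transcription of these genes in many cell types, the intestinal epithelium included.

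All 9 named genes were found in the RefSeq gene table of the later build GRCm38.p6, in the order Tapbp, H2-K1, Psmb9, Tap1, Psmb8, Tap2, H2-Aa, H2-D1 and H2-T23. Psmb9, Tap1, Psmb8 and Tap2 were direct neighbours there, with 0 protein-coding genes between them. Other protein-coding genes lay between the rest, 6 from Tapbp to H2-K1, 10 from H2-K1 to Psmb9 and 2 from Tap2 to H2-Aa. From H2-Aa to H2-D1 there were 64, and from H2-D1 to H2-T23 there were 33. Members were taken by position alone and need not belong to antigen presentation genes. The table of peaks names no gene, and mm9 and GRCm38.p6 coordinates cannot be set side by side, so peaks are given by position and no peak is assigned to a promoter. For the same reason the organoids could not be checked against epithelial or immune cell markers, and antigen presentation genes elsewhere in the genome were not analysed here.

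A pair of promoter sequences from RefSeq shows the kind of DNA these windows hold: that of H2-K1, the classical class I heavy chain of the first window, and the interval between the start of Psmb9 and that of Tap1, which lie head to head. They are printed 5′ to 3′ as chr17:34000348-34000597 on the minus strand for H2-K1 and chr17:34187331-34187555 on the plus strand for Psmb9 to Tap1, both in GRCm38.p6 and not comparable with the mm9 positions of the peaks. Capitals mark GGGATTCCC, a site of the kind bound by NF-kB proteins, and, on either strand, GAANNGAAA, a core of interferon response elements.
H2-K1: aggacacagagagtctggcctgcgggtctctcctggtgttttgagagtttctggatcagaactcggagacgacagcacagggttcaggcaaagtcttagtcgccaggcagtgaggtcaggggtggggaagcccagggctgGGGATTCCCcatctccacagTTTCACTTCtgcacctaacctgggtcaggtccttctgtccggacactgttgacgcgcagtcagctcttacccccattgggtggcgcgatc
Psmb9 to Tap1: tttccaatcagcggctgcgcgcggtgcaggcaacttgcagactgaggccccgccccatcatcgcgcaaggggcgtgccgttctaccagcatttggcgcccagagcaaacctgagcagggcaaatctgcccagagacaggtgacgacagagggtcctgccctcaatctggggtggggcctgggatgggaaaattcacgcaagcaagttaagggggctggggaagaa

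The H2-K1 promoter printed above held 1 copy of each capitalised motif, and the Psmb9 to Tap1 interval held neither. H2-K1 had 2 promoter entries, and only the first was searched and printed. Counts over all promoters take every entry. In the 250 bases before the start, GGGATTCCC was found in 2 of the 8 members with a promoter entry, H2-K1 and H2-D1, and in 99 of all 32851 promoters (0.301%). The same pair held GAANNGAAA, found in 6.31% of all promoters. Both of these motifs were chosen after the promoters were read. Of the motifs listed earlier, the interferon element with GAAA and GAAA parted by 2 bases was found in 1 of the 8, H2-T23, against 2.98% of all promoters, and ACAAT, the core of SOX protein sites, was found in 0 of the 8, against 27.7%. Motifs were sought on both strands, and a match is a description of letters in these windows.

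The total count in peaks ran from 1185356 to 5987545 per library, and the median member held between 26 and 120.5 counts. The share of a library's counts that fell in members was 0.243%, 0.233% and 0.228% in primary replicates 1, 2 and 3, against 0.230%, 0.242% and 0.234% in naive replicates 1, 2 and 3. These shares overlapped between the groups. Of the 66 members, 60 passed the filter on low counts and were tested, 37 in the first window and 23 in the second. The 6 untested members were faint, with group means between 2.38 and 4.85 CPM in primary lines and between 2.47 and 4.06 CPM in naive organoids. CPM is a library's count scaled, with TMM, to a total shared by all libraries. No row of the table used here lay in the first 652.496 kb of the second window. The last peak before it ended at 34987983, the next began at 36002496, and the 171 peak numbers from 41223 to 41395, both ends left out, have no row, so that stretch was not analysed here. All values of the second window therefore come from its last 597.504 kb. Since peaks were not tied to genes, these values cannot be taken to cover H2-D1 or the H2-Q genes. In the first window no row lay between 34347868 and 34490279, a stretch of 142.411 kb. The peaks at both ends of that stretch were among the untested members. Values of the first window likewise cannot be taken to cover each gene it was chosen for, the class II genes included.

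Summed over its tested peaks, neither window differed detectably between the groups. In the first window the sum was 1795, 1661 and 1565 CPM in primary replicates 1, 2 and 3, against 1688, 1933 and 1616 CPM in naive replicates 1, 2 and 3. The lowest sum was that of a primary line and the highest that of a naive library, and the groups overlapped. The means were 1673 ± 115 CPM in primary lines and 1746 ± 167 CPM in naive organoids (n = 3 per group, SD), a log2 difference of -0.06. In the second window the sum was 686, 673 and 628 CPM in primary replicates 1, 2 and 3, against 627, 721 and 702 CPM in naive replicates 1, 2 and 3. The primary values all lay within the naive range there. The means were 662 ± 30.7 CPM in primary lines and 683 ± 49.7 CPM in naive organoids (n = 3 per group, SD), a log2 difference of -0.04. An exact permutation test, 2-sided, gave p = 0.6 for each window, and 0.6 after adjustment over the 2 windows. The smallest p that 3 libraries against 3 allow is 0.1. Both differences changed sign under some settings of the processing, so no direction is given for either.

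**Figure D1:**
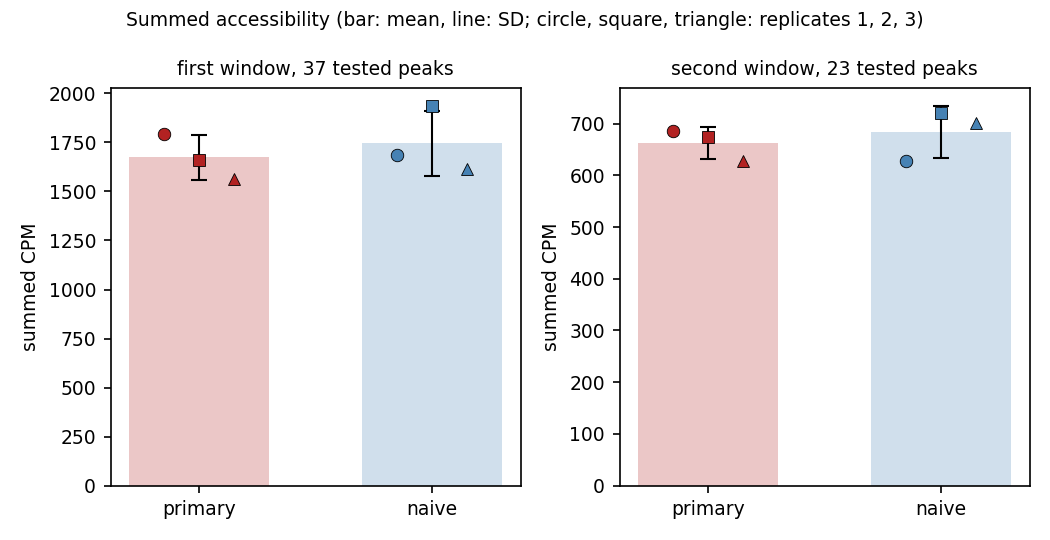
Summed normalised counts (CPM, linear axis from 0) over the 37 tested peaks of the first window and the 23 of the second, primary left of naive; bars are means, lines SDs and points the 3 libraries of each group. The first window averaged 1673 CPM in primary lines and 1746 CPM in naive organoids, and the points of the groups overlap in both windows.

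Peak by peak, 4 of the 60 tested members were more accessible in the lines from primary tumours (6.67%), against 8.00% of all 36179 tested peaks. None of the 60 was called less accessible (0), against 6.40% of all tested peaks. The test was edgeR's quasi-likelihood F test, with Benjamini-Hochberg adjustment over all tested peaks and a call at an adjusted p under 0.05. At an unadjusted p under 0.05, 5 members were higher (8.33%, against 14.3% of all tested peaks) and 4 lower (6.67%, against 13.1%). The DESeq2 Wald test called 4 members higher and 0 lower, against 7.74% and 5.99% of all tested peaks. Without naive replicate 2, 2 of 64 tested members were called higher, against 3.59% of all peaks tested there. Without primary replicate 3 and without naive replicate 3, 1 of 63 tested members was called lower, against 4.22% and 4.48% of all peaks tested there. The share called higher lies near that of the whole table and is not a result about these genes. The median log2 fold change, primary minus naive, was -0.03 over the 60 members, 0.02 over the other 1387 tested peaks of chromosome 17 and -0.01 over all tested peaks. Of the members, 27 had a positive log2 fold change (45.0%, against 49.7% of all tested peaks) and 33 a negative one. All 3 primary lines lay above all 3 naive libraries at 10 members (16.7%, against 15.5% of all tested peaks) and below them at 5 (8.33%, against 15.3%).

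For the 56 tested members that were not called, log2 fold changes ran from -0.89 to 1.76. At 39 of them the 95% interval of the log2 fold change lay between -1 and 1, so that a difference of 2-fold or more lay outside it (69.6%, against 35.2% of the uncalled peaks of the whole table). At the other 17 the interval reached a 2-fold difference in at least 1 direction, and a change of that size was not excluded by it. Tested members were stronger than the middle peak of the table, with a median of 26.4 CPM against 16.3 CPM over all tested peaks, and the median SE of their log2 fold changes was 0.31 against 0.39. They were also wider, with a median of 970 bp against 844 bp.

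**Figure D2:**
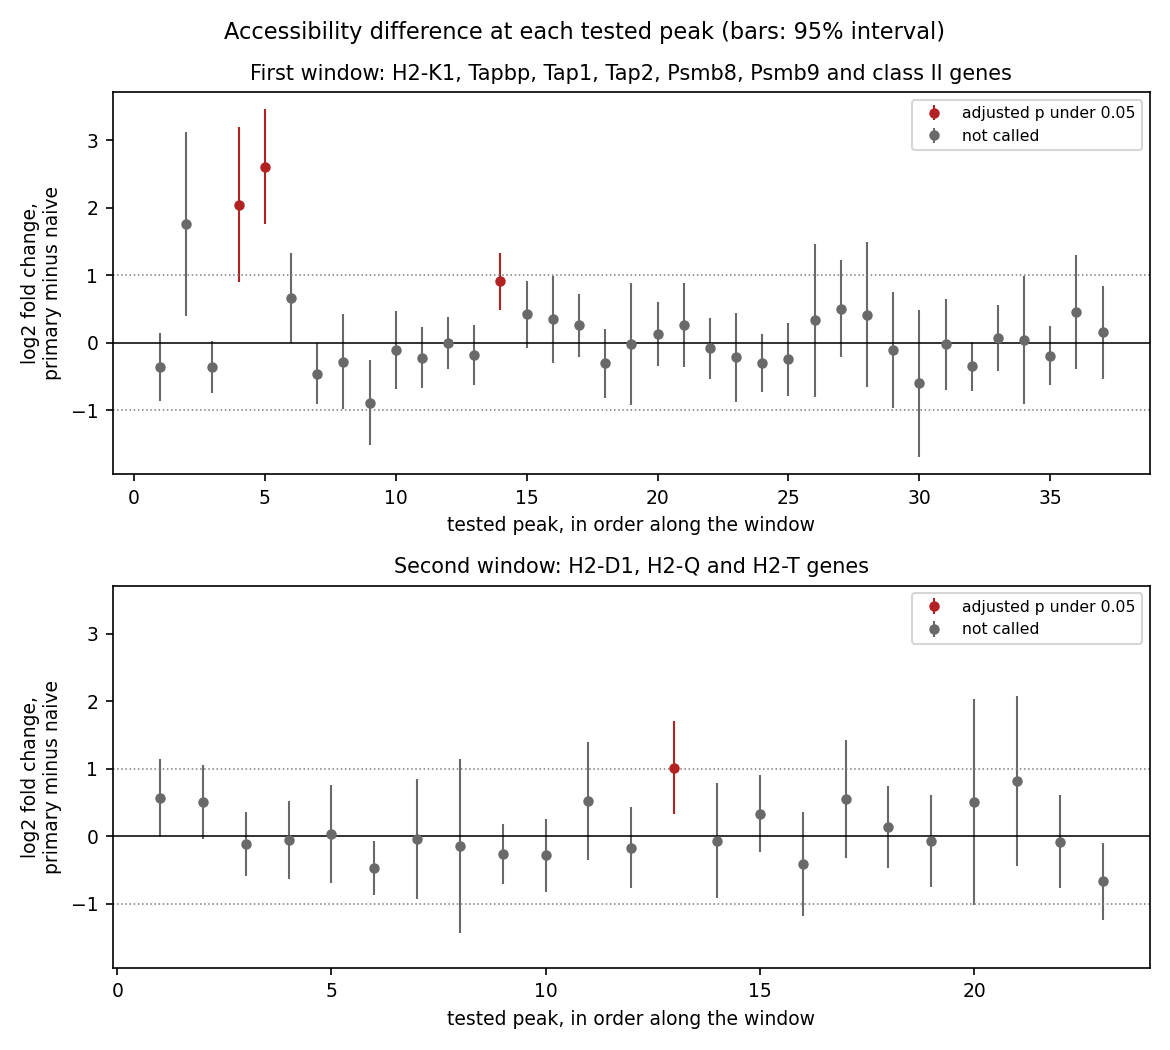
Log2 fold change (primary minus naive) of each tested member in its order along the first window (upper panel) and the second (lower panel), with 95% intervals; red marks an adjusted p under 0.05 and dotted lines mark 2-fold. Most intervals cross 0, and the 4 called peaks are tested peaks 4, 5 and 14 of the first window and 13 of the second.

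A pair of the called peaks lay close together near the start of the first window, 68.285 kb from its edge and 901 bp apart. At chr17:33920253-33920976 (tested peak 5) the level was 29.1, 46.6 and 19.9 CPM in primary replicates 1, 2 and 3, against 6.86, 4.04 and 5.55 CPM in naive replicates 1, 2 and 3. Every primary line was higher than every naive library, with primary replicate 2 the highest. The means were 31.9 ± 13.5 CPM in primary lines and 5.49 ± 1.41 CPM in naive organoids (n = 3 per group, SD), a log2 fold change of 2.61 (SE 0.41, edgeR adjusted p = 0.000117), or 6.11-fold. At its neighbour chr17:33918285-33919352 (tested peak 4) the level was 16.5, 14.3 and 7.59 CPM in primary replicates 1, 2 and 3, against 4.29, 1.65 and 4.27 CPM in naive replicates 1, 2 and 3. The groups did not overlap there either, but the naive values rest on 5, 9 and 10 counts. The peak passed the filter on low counts through its primary values alone, so its call leans on the group where it is high. Its log2 fold change was 2.04 (SE 0.56, edgeR adjusted p = 0.0142). Without naive replicate 2, the deepest library, this call was lost (log2 fold change 1.58, edgeR adjusted p = 0.121).

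The third called peak, chr17:34056108-34057929, lay well inside the first window and had the closest replicates of the 4. Its level was 92.1, 88.9 and 98.7 CPM in primary replicates 1, 2 and 3, against 50.6, 51.8 and 46.5 CPM in naive replicates 1, 2 and 3. The lowest primary line stood far above the highest naive library. The means were 93.2 ± 4.97 CPM in primary lines and 49.7 ± 2.76 CPM in naive organoids (n = 3 per group, SD), a log2 fold change of 0.91 (SE 0.21, 95% interval 0.48 to 1.33, edgeR adjusted p = 0.00363), or 1.88-fold. The tested members on either side did not pass the test. At chr17:34052688-34053152 the log2 fold change was -0.19 (edgeR adjusted p = 0.639), and at chr17:34066264-34068076 it was 0.42 (edgeR adjusted p = 0.270).

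The called peak of the second window, chr17:36138051-36139282, was the least certain. Its level was 41.9, 77.8 and 33.2 CPM in primary replicates 1, 2 and 3, against 17.2, 19.3 and 38.0 CPM in naive replicates 1, 2 and 3. The groups overlapped, since naive replicate 3 lay above primary replicate 3, and primary replicate 2 was far above the rest. The log2 fold change was 1.01 (SE 0.33, edgeR adjusted p = 0.0440). The call was lost without primary replicate 2 (log2 fold change 0.59, edgeR adjusted p = 0.301), without naive replicate 1 (0.85, adjusted p = 0.129) and without naive replicate 2 (0.81, adjusted p = 0.234), and with the replicate number as a block (1.05, adjusted p = 0.0776).

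**Figure D3:**
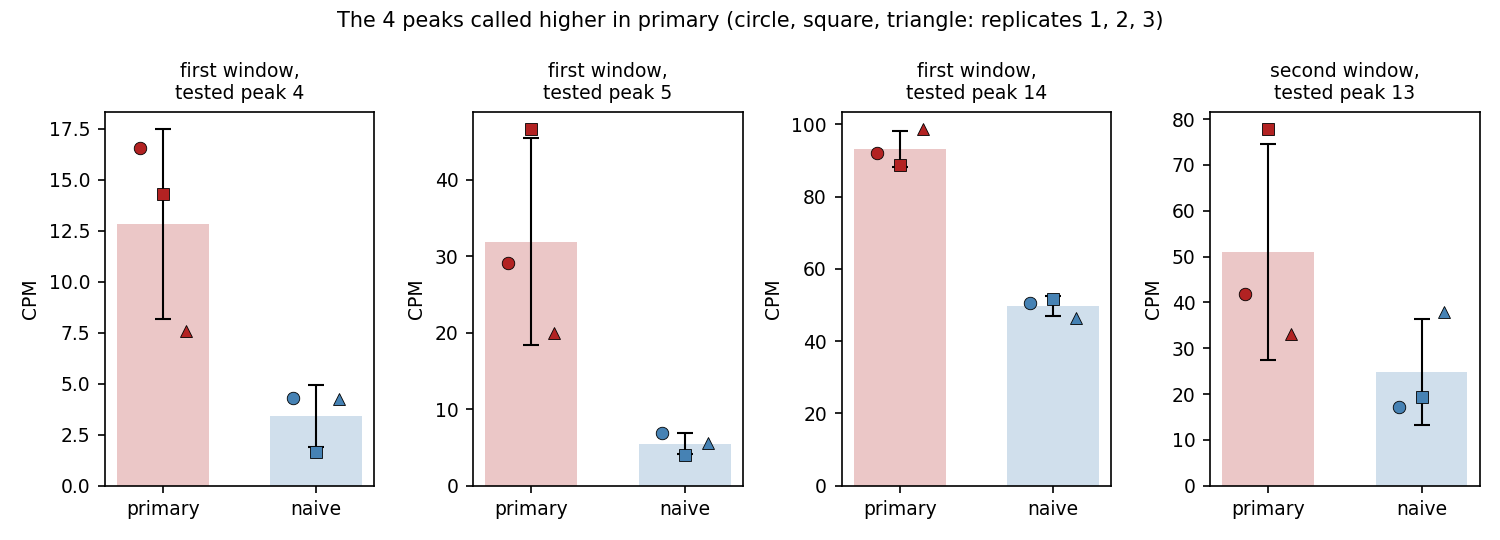
Normalised count (CPM, linear axes from 0) in each library at the 4 called peaks, primary left of naive; bars are means, lines SDs and points replicates 1, 2 and 3. The groups are apart in the 3 peaks of the first window, and in the peak of the second window naive replicate 3 (38.0 CPM) lies above primary replicate 3 (33.2 CPM).

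None of the 5 strongest members of the first window passed the test. The widest and strongest, chr17:34255851-34259811, had 253, 262 and 198 CPM in primary replicates 1, 2 and 3, against 298, 356 and 256 CPM in naive replicates 1, 2 and 3. The groups met at 262 CPM in a primary line and 256 CPM in a naive library, and the log2 fold change was -0.35 (95% interval -0.72 to 0.01, edgeR adjusted p = 0.202). At chr17:33896635-33897736 the means were 145 ± 18.6 CPM in primary lines and 186 ± 35.9 CPM in naive organoids (n = 3 per group, SD; log2 fold change -0.36, edgeR adjusted p = 0.217). At chr17:34045543-34047093 they were 128 ± 15.6 CPM in primary lines and 128 ± 16.7 CPM in naive organoids (n = 3 per group, SD), and the 95% interval of the log2 fold change ran from -0.39 to 0.38. That interval excludes a 2-fold difference in either direction. The other strong members of the first window, chr17:34027344-34028040 and chr17:34115444-34116165, had log2 fold changes of -0.22 and 0.13 (edgeR adjusted p = 0.565 and 0.780).

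In the second window the strongest member was chr17:36052471-36054065, with 110, 120 and 87.3 CPM in primary replicates 1, 2 and 3, against 132, 170 and 134 CPM in naive replicates 1, 2 and 3. Every primary line lay below every naive library, yet the difference did not pass the test (log2 fold change -0.47, SE 0.19, unadjusted p = 0.0227, edgeR adjusted p = 0.108). The next strongest members, chr17:36106279-36107269, chr17:36016386-36017197 and chr17:36116068-36117178, had log2 fold changes of -0.27, -0.12 and -0.29 (edgeR adjusted p = 0.477, 0.797 and 0.537). The called peak at 36138051 was also among the 5 strongest of the window.

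**Figure D4:**
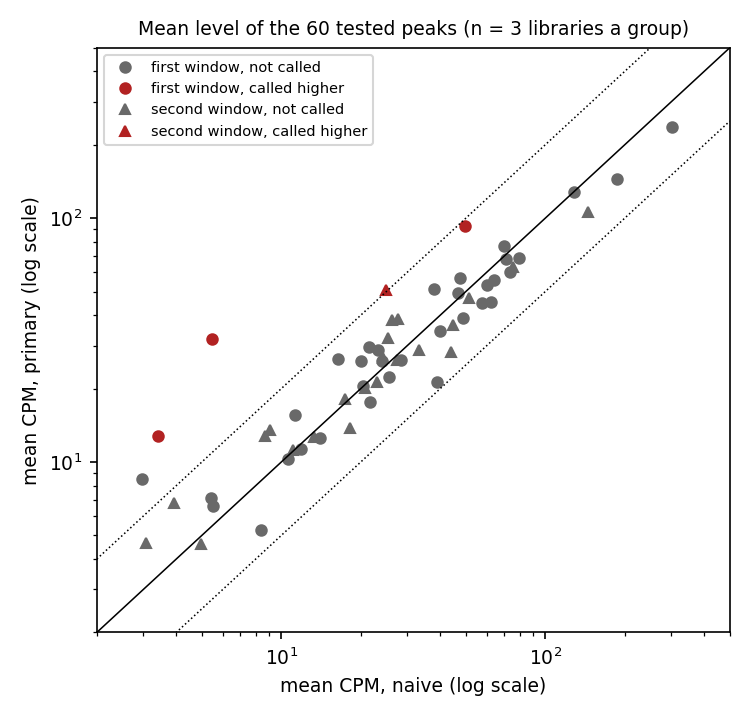
Mean CPM of the 60 tested members in primary lines (vertical) against naive organoids (horizontal), both on log scales, with circles for the first window and triangles for the second; the solid line is equality, dotted lines are 2-fold, and red marks called peaks. Most members lie between the dotted lines, and the peaks furthest above the upper dotted line are the pair near the start of the first window, with means of 31.9 and 12.8 CPM in primary lines against 5.49 and 3.40 CPM in naive organoids.

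The largest differences that did not pass the test fell in both directions. At chr17:33892473-33892692, before the called pair, the log2 fold change was 1.76 (SE 0.67, edgeR adjusted p = 0.0769), with 11.7, 9.53 and 4.27 CPM in primary replicates 1, 2 and 3, against 6.01, 2.02 and 0.854 CPM in naive replicates 1, 2 and 3. It rests on as few as 2 counts in naive replicate 3. At chr17:33965715-33966357 the log2 fold change was -0.89 (SE 0.31, edgeR adjusted p = 0.0519), with 17.4, 16.4 and 29.9 CPM in primary replicates 1, 2 and 3, against 39.5, 49.8 and 27.3 CPM in naive replicates 1, 2 and 3. The groups overlapped at both of these peaks. In the second window chr17:36407832-36409175 had a log2 fold change of -0.67 (edgeR adjusted p = 0.111) and the faint chr17:36389160-36389691 one of 0.82 (edgeR adjusted p = 0.428).

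To look at stretches rather than single peaks, counts were summed in 50 kb tiles over the genome and tested in the same way. Members lay in 20 of the 38 tiles of both windows, and 18 of these were tested. The tile chr17:33900000-33950000, which holds the called pair, was higher in primary lines, with 73.3 ± 21.9 CPM against 27.1 ± 4.82 CPM in naive organoids (n = 3 per group, SD; log2 fold change 1.44, SE 0.26, edgeR adjusted p = 0.000812). Its sum includes the counts of the pair, so the call is not separate from the peak calls. Beside the pair it holds chr17:33946967-33948228, not called (log2 fold change 0.66, edgeR adjusted p = 0.186), and an untested peak. That tile was the single one of the windows called higher, against 8.64% of 17236 tiles tested, and 0 were called lower, against 6.42%. At an unadjusted p under 0.05, 2 of the 18 tiles were higher, against 14.8% of all tiles tested, and 3 were lower, against 13.4%. The DESeq2 Wald test called 1 of the 18 tiles higher, again that from 33900000, and 0 lower. The share of all tiles is not given here for that test. Tiles on either side of the called tile had log2 fold changes of -0.28 and -0.42 (edgeR adjusted p = 0.288 and 0.0877). The tile from 34050000, which holds the called peak at 34056108 and 5 others, had 318 ± 26.0 CPM in primary lines and 257 ± 18.0 CPM in naive organoids (n = 3 per group, SD; log2 fold change 0.31, edgeR adjusted p = 0.152). At 16 of the 18 tested tiles the 95% interval of the log2 fold change lay between -1 and 1, the exceptions being the called tile and that from 36400000 (log2 fold change -0.63, edgeR adjusted p = 0.143). The share of all tiles with such an interval is not given here, so this is not a trait of these windows.

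Chromosome 17 outside the windows moved little between libraries. Its median log2 ratio to the naive mean was 0.05, 0.03 and -0.01 in primary replicates 1, 2 and 3. In naive replicates 1, 2 and 3, which are themselves part of that mean, it was 0.003, 0.01 and 0.01. Over members the same median ran from -0.13 to 0.14 in primary lines and from -0.07 to 0.09 in naive organoids in the first window. In the second it was 0.08 in each primary line and ran from -0.23 to 0.17 in naive organoids. The primary medians lay within the naive range in the second window, and on both sides of 0 in the first.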

How the data were processed

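ATAC-seq reads were paired-end, 75 bases each, from 50000 cells per library, per the labels' protocols. The authors deposited raw read counts over 1 peak set shared by the 6 libraries. Per the submitters' processing notes, the build was mm9 and the tools included MACS2, bedtools, SAMtools, Picard and Bowtie. The sources used here do not give their roles, the handling of duplicates and of reads that match several class I genes, or any transposase shift, and each can change counts. The test used edgeR 4.0.16 under R 4.3.3 (filterByExpr, TMM factors 0.922 to 1.05, robust quasi-likelihood fit, group as sole term). Its code was tried on counts simulated with dispersions fitted to these data, which checks the code and not the calls. DESeq2 1.42.0 was an alternative. Standard errors come from the fold change and F statistic. Tiles take each peak by its middle. Window sums were compared on the log2 scale, and log2 ratios to the naive mean used a pseudocount of 1 CPM. Named peaks were all called members, the 5 strongest and the 2 largest uncalled differences of each window. The alternatives were other scalings, offsets and filters, another tool, a replicate block, tiles of 25 kb and each library left out. Members, lists and motifs were chosen with earlier results of these data known.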

Additional observations from a re-analysis of the deposited data

How the results depend on the processing

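The 4 members called higher were also called, and 0 lower, under total-count scaling, DESeq2 size factors, abundance-trended offsets, the DESeq2 test and no filter. Of all peaks tested under these settings, 7.04% to 8.20% were called higher and 5.15% to 6.54% lower. A chromosome 17 offset per library gave 4 higher and 1 lower, chr17:33965715-33966357 (adjusted p = 0.0489, edgeR), against 7.99% and 6.47% of all peaks tested. With at least 20 counts in at least 3 libraries 52 members were tested. Of these, 3 were called higher and 0 lower, against 9.47% and 6.62% of all peaks tested. The called peak at 33918285 did not pass that filter and was not tested there. Leaving out 1 library gave 2 to 5 higher and 0 to 1 lower, against 3.59% to 8.08% and 2.23% to 6.41% of all peaks tested; the 2 came without naive replicate 2, and the 1 lower, again 33965715, without primary replicate 3 and without naive replicate 3. The peak at 33892473 was called without primary replicate 3 and without naive replicate 1. The tile from 33900000 was called higher under every tile alternative, 25 kb tiles and each library left out included. It holds the called pair each time, so these calls are not separate from the peak calls. The replicate block called 3 members higher and 0 lower, against 5.45% and 4.33% of all peaks tested. Deviations of libraries with the same number correlated at -0.24, -0.11 and 0.0047. None matched its own number best, so the numbers were not taken to pair the libraries. Window differences changed sign: with total-count scaling 0.0058 in the second, as medians of log2(CPM + 1) 0.052 in the first and 0.054 in the second, and over libraries left out -0.12 to 0.017 in the first and -0.11 to 0.0095 in the second. The peak at 34045543, at -0.0049, was 0.057 with total-count scaling, 0.0026 with DESeq2 size factors, 0.0029 with the DESeq2 test, 0.21 with trended offsets, 0.031 with the stricter filter, and -0.12 to 0.085 over libraries left out. Over libraries left out the peak at 34115444 ran from -0.11 to 0.31, and that at 34027344 from -0.35 to 0.0066. The cause of these changes was not tested. At 17 uncalled members the 95% interval reached 2-fold, and the part of depth in this was not tested.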

Other observations

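The tested peaks outside both windows whose levels followed the window sums most closely over the 6 libraries are given as a description, since so few libraries let many peaks of the genome follow any profile. For the first window they were chr12:117285634-117286429, chr7:130513257-130513988 and chr3:95392356-95393062 (Pearson's r 0.998, 0.995 and 0.992), with log2 fold changes of -0.24, -0.10 and -0.16. For the second they were chr17:6961548-6963155, chr5:136219226-136220613 and chr3:37605254-37605663 (r 0.998, 0.996 and 0.992), with log2 fold changes of -0.16, -0.13 and -0.57. None of these 6 passed the test between the groups (adjusted p 0.543 to 0.803, edgeR).

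Libraries differed within both groups at the broad member chr17:34204680-34207168, a peak chosen after its values were seen. The spread within groups was not tested. Its level was 16.3, 40.7 and 31.8 CPM in primary replicates 1, 2 and 3, against 29.2, 15.4 and 19.6 CPM in naive replicates 1, 2 and 3 (log2 fold change 0.50, adjusted p = 0.385, edgeR).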
